A study of Mus musculus with 9 samples.

Results

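Keratin, epithelial and mesothelial genes were followed across 3 lines of mouse embryonic fibroblasts (MEFs) that differ in the gene Oga. The members were 10 genes, 5 of them keratins (Krt7, Krt8, Krt14, Krt18 and Krt19), with the epithelial adhesion genes Cdh1 and Epcam and the mesothelial genes Upk3b, Msln and Wt1, out of 18193 genes named on the array. All probe sets annotated with a member symbol were taken, which gave 17; 1 of them lists Krt14 together with a second gene and was not used, leaving 16. The protein made from Oga, O-GlcNAcase, takes O-linked N-acetylglucosamine off other proteins. The lines were Oga knockout (KO), Oga heterozygous (Het) and wild type (WT), each grown in DMEM from a female embryo at stage E12.5 and each measured on 3 arrays. Heterozygous animals came from a floxed Oga allele in the background written as C57B1/6 and a female carrying the transgene B6129-Tgn(MMTV-Cre)1Mam, in which a mouse mammary tumour virus promoter drives Cre, and their intercross gave embryos of all 3 genotypes. The sources used here do not say whether the embryos still carried the Cre transgene. The 3 arrays of a genotype share a line code and are called technical replicates in the design, so every p-value rests on the spread between arrays, and genotype cannot be told apart from any other difference between the lines.

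Keratins are the intermediate filament proteins of epithelial cells, and a filament is built from pairs of a type I and a type II keratin. Krt18 and Krt19 are type I keratins of simple epithelia, Krt8 and Krt7 are the type II keratins they pair with, and Krt14 is the type I keratin of the basal layer of stratified epithelia, where it pairs with Krt5. Cdh1 (E-cadherin) and Epcam are cell adhesion molecules that define most epithelia. Wt1, a zinc finger transcription factor, Msln, a surface glycoprotein, and Upk3b, a uroplakin, mark the mesothelium that lines the body cavities. Low levels of Krt8 and Krt18 are also known in some mesenchymal and muscle cells.

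The lines could be checked on their own genes first. At its most abundant probe set Oga had 6.03, 6.08 and 6.08 on the log2 scale in KO arrays, 11.16 on each Het array, and 11.89, 11.93 and 11.95 in WT arrays, and its other 5 probe sets were also called lower in KO than in WT. Fibroblast genes were abundant in every line: the collagen gene Col1a1 averaged 14.87 in KO, 14.89 in Het and 14.95 in WT arrays. Correlations between arrays were 0.997 to 0.999 within a line and 0.989 to 0.996 between lines. The files give no detection calls, so a low-value limit of 6.22, under which 40% of probe sets lie by their mean over the 9 arrays, marks dim probe sets below.

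Most members were dim. Of the 16 probe sets 4 had a mean at or above the limit, namely those of Krt18 and Krt19 and the most abundant ones of Krt8 and Epcam, and 12 lay below it, so 6 of the 10 genes had no probe set that reached it. A gene was called when its difference reached 2-fold with a Benjamini-Hochberg adjusted p below 0.05, adjusted over all 45037 probe sets fitted with limma. Between KO and WT 2 of the 16 probe sets were called, both higher (of all probe sets 0.646% were called higher and 1.86% in either direction), and 6 of the 16 passed the adjusted p threshold alone (28.9% of all). The median log2 difference of the 16 was 0.04, beside 0.01 over all probe sets; with each of the 10 genes read at its most abundant probe set it was 0.23, beside -0.02 over all genes. Between Het and WT 0 of the 16 were called by limma (0.246% of all probe sets), and 1 passed the adjusted p threshold alone (21% of all). Between KO and Het the same 2 probe sets as against WT were called higher (of all probe sets 0.415% were called higher and 1.05% in either direction), and 5 passed the adjusted p threshold alone (26.6% of all). KO and WT arrays did not overlap at 9 of the 16 probe sets, 6 higher and 3 lower in KO, and 40.7% of all probe sets were separated in this way. For Het against WT the count was 5 of 16 (36.8% of all), and for KO against Het 7 of 16 (39.5% of all).

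**Figure D1:**
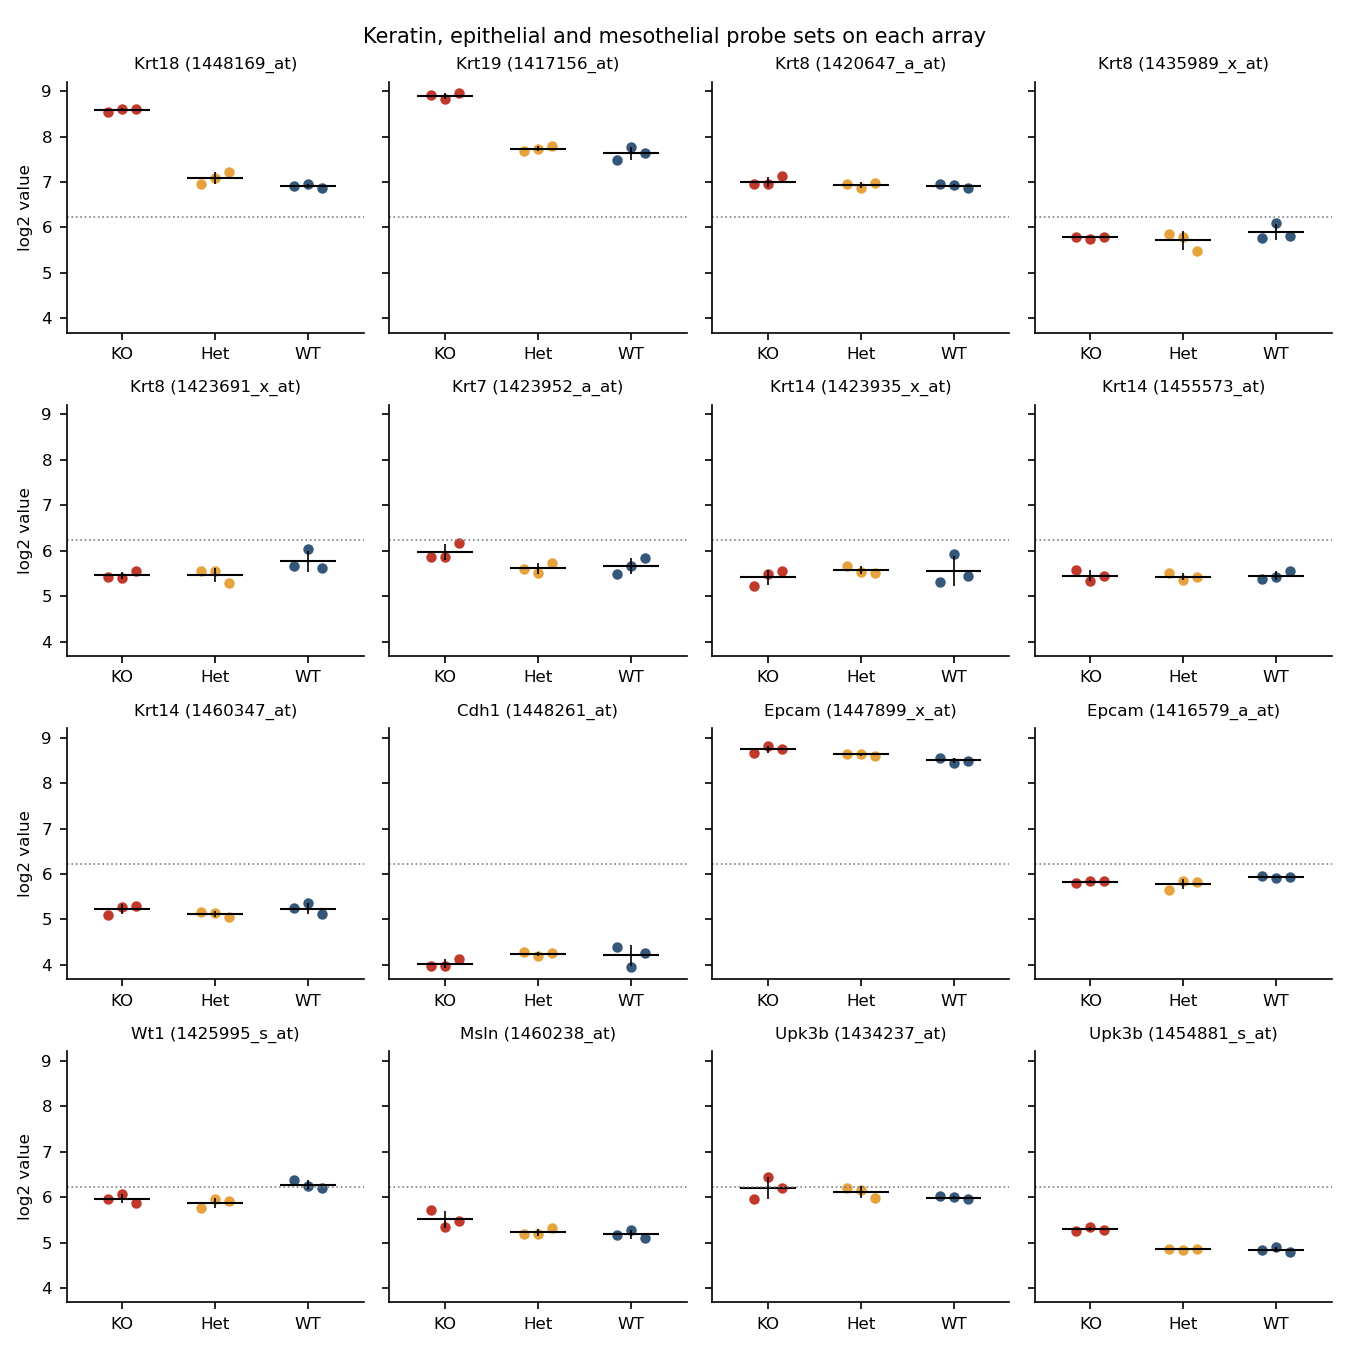
Log2 values of the 16 probe sets on every array. The x axis gives the KO, Het and WT lines and the y axis the deposited log2 value. Points are arrays, horizontal lines are means, vertical lines are SD (n = 3), and the dotted line is the low-value limit of 6.22. Krt18 and Krt19 stand higher in KO than in Het and WT, and most other panels lie under the limit.

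Krt18 and Krt19, both type I keratins of simple epithelia, rose in the KO line. Krt18 had 8.55, 8.61 and 8.61 in KO arrays, 6.96, 7.09 and 7.21 in Het arrays, and 6.92, 6.96 and 6.86 in WT arrays. The KO arrays lay well above all others, and the Het arrays lay at or just above the WT arrays. Its KO mean of 8.59 ± 0.0365 (SD, n = 3) was 3.20-fold above the WT mean of 6.91 ± 0.0493, and the log2 difference was 1.68 with an SE of 0.0654 (adjusted p = 2.7e-08 by limma). Values after ± are SD for means and SE for differences. Krt19 had 8.91, 8.82 and 8.95 in KO arrays, 7.68, 7.73 and 7.80 in Het arrays, and 7.48, 7.77 and 7.65 in WT arrays. KO was again separate, while Het and WT overlapped. The log2 difference between KO and WT was 1.26 ± 0.0739, or 2.39-fold (limma adjusted p = 5.4e-07).

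In the line with 1 working copy of Oga neither gene was called against WT. The Het minus WT difference was 0.17 ± 0.0654 for Krt18 (limma adjusted p = 0.0879) and 0.10 ± 0.0739 for Krt19 (adjusted p = 0.370). Set against Het, the KO line was higher by 1.51 ± 0.0654 for Krt18 (limma adjusted p = 1.3e-07) and by 1.16 ± 0.0739 for Krt19 (adjusted p = 1.8e-06). Each gene has 1 probe set with a single symbol, so there was no second probe set to compare.

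**Figure D2:**
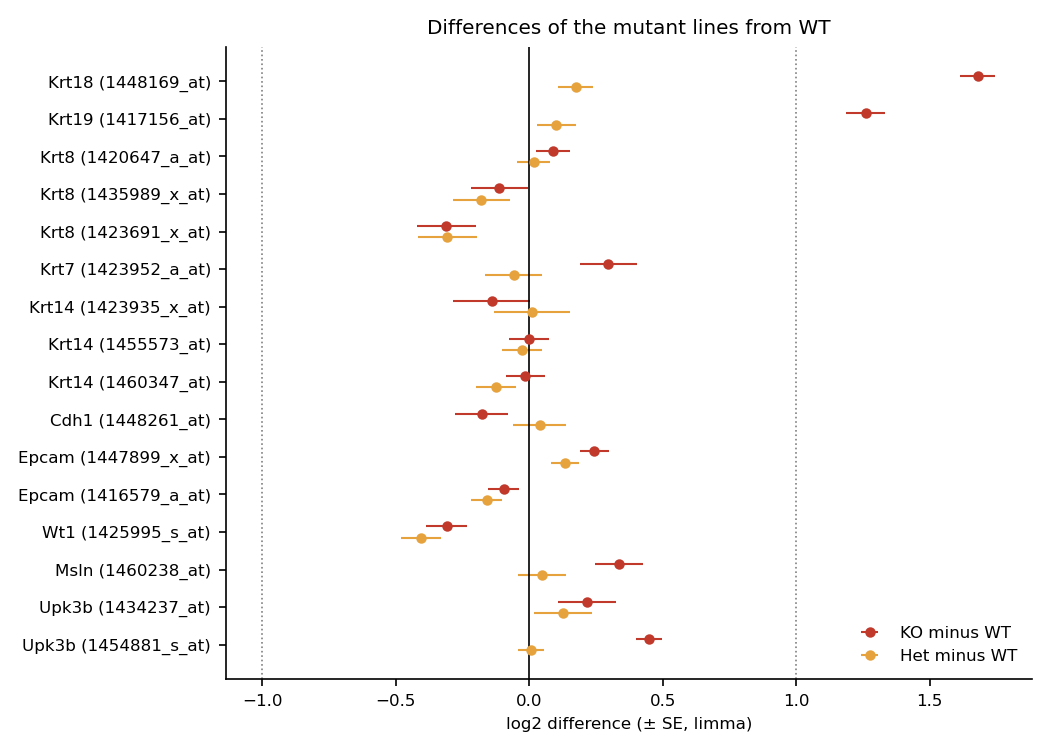
Log2 difference of KO from WT and of Het from WT for each probe set (x axis), with SE from limma. Dotted lines mark 2-fold in each direction. Krt18 at 1.68 and Krt19 at 1.26 in KO lie past the line for 2-fold, and every other point lies between the lines.

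The type II partner genes did not pass the same test. Krt8, the usual partner of Krt18, had 6.95, 6.95 and 7.13 in KO arrays, 6.96, 6.86 and 6.98 in Het arrays, and 6.95, 6.93 and 6.88 in WT arrays, read where it was most abundant. The lines overlapped, with a KO minus WT difference of 0.09 ± 0.0630 (limma adjusted p = 0.334). The other 2 Krt8 probe sets, both under the low-value limit and both of a kind (_x_at) whose probes may also match other transcripts, stood at -0.31 (adjusted p = 0.0599) and -0.11 (adjusted p = 0.483). Krt7 had 5.87, 5.86 and 6.17 in KO arrays, 5.60, 5.50 and 5.73 in Het arrays, and 5.50, 5.66 and 5.84 in WT arrays. Its KO arrays were slightly above the rest, but all lay under the limit and the difference from WT of 0.30 ± 0.107 did not pass (limma adjusted p = 0.0622); against Het it was 0.35 (adjusted p = 0.0322), short of 2-fold. The 3 probe sets of Krt14 stayed between 5.04 and 5.93 on all 9 arrays, with KO minus WT differences of -0.14, -0.01 and -0.0008 (limma adjusted p from 0.515 to 0.995).

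Krt18 and Krt8 are next to each other on mouse chromosome 15 and point away from each other, and their promoter windows are shown because Krt18 rose and Krt8 did not pass the test. The windows run from 250 bases before to 50 bases after the RefSeq gene start in GRCm38.p6, each 5′ to 3′ on the strand of its gene. Capitals mark matches on either strand to the searched motifs: TATAAA for the TATA box, GGGCGG for the Sp1 GC box, TGAGTCA for the AP-1 site, which reads TGACTCA on the other strand, and CACCTG for an E-box bound by Snail and Zeb factors.
Krt18, chr15:102027966-102028265, plus strand: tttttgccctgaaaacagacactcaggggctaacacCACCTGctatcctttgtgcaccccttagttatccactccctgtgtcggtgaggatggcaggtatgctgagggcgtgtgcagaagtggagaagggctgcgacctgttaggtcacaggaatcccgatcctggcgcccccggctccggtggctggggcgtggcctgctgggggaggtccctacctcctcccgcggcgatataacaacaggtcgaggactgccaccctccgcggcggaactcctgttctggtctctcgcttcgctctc
Krt8, chr15:102004293-102004592, minus strand: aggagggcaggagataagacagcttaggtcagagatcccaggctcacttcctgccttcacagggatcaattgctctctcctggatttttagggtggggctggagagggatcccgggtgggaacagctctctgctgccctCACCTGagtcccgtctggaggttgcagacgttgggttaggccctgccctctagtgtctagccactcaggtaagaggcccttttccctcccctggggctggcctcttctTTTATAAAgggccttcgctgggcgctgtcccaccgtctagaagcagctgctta
The Krt18 window holds 1 CACCTG and no match to the other motifs. The Krt8 window also holds 1 CACCTG, and it has TATAAA on both strands as 2 overlapping matches. These begin at -3 and -1 from the RefSeq start and so span it, and whether they act as a TATA box was not tested. Of 32851 promoter windows of this length 20.2% hold the E-box letters, 13.6% the TATA letters, 35.7% the GC box and 5.20% an AP-1 site. The Krt7 window has 4 GC boxes and 1 CACCTG, that of Epcam 1 GC box and 2 E-box matches, and those of Krt14 and Upk3b hold none of these letters.

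No measured gene within 6 places of Krt18 in gene order was called, and of all genes only 0.753% were called higher and 1.91% lower. Of the 6 protein-coding genes on its keratin side, Krt8, Krt78, Krt79, Krt4, Krt76 and Krt77, the KO minus WT differences ran from -0.32 for Krt76 (limma adjusted p = 0.203) to 0.26 for Krt77 (adjusted p = 0.0415). On the other side the translation initiation factor gene Eif4b, which comes first, was at -0.06 (adjusted p = 0.369). Beyond it Tns2, a tensin of focal adhesions, stood at -0.51 (adjusted p = 3.5e-04) and Igfbp6, which binds insulin-like growth factors, at -0.42 (adjusted p = 0.00134), lower in KO but short of 2-fold.

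Across the keratin family 44 genes were measured, 22 on chromosome 11, where mouse type I genes lie, and 22 on chromosome 15, which holds the type II genes and Krt18. Krt18 and Krt19 were the only keratin genes called between KO and WT at their most abundant probe set (0.753% of all genes were called higher). The other 21 genes on chromosome 15 ran from -0.32 for Krt76 to 0.30 for Krt7, and the other 21 on chromosome 11 from -0.29 for Krt27 to 0.61 for Krt20. Of these 42 genes 4 passed the adjusted p threshold (34.8% of all genes did), and 25 of them were under the low-value limit. Krt20, a type I keratin of gut and bladder epithelium, named here after its value was seen, had 7.24, 7.18 and 7.04 in KO arrays, 6.63, 6.61 and 6.32 in Het arrays, and 6.39, 6.68 and 6.55 in WT arrays. Its KO arrays were above all others, at 1.53-fold over WT (limma adjusted p = 8.1e-04). Krt5, the partner of Krt14, differed from WT by 0.26 in KO (adjusted p = 0.0567).

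**Figure D3:**
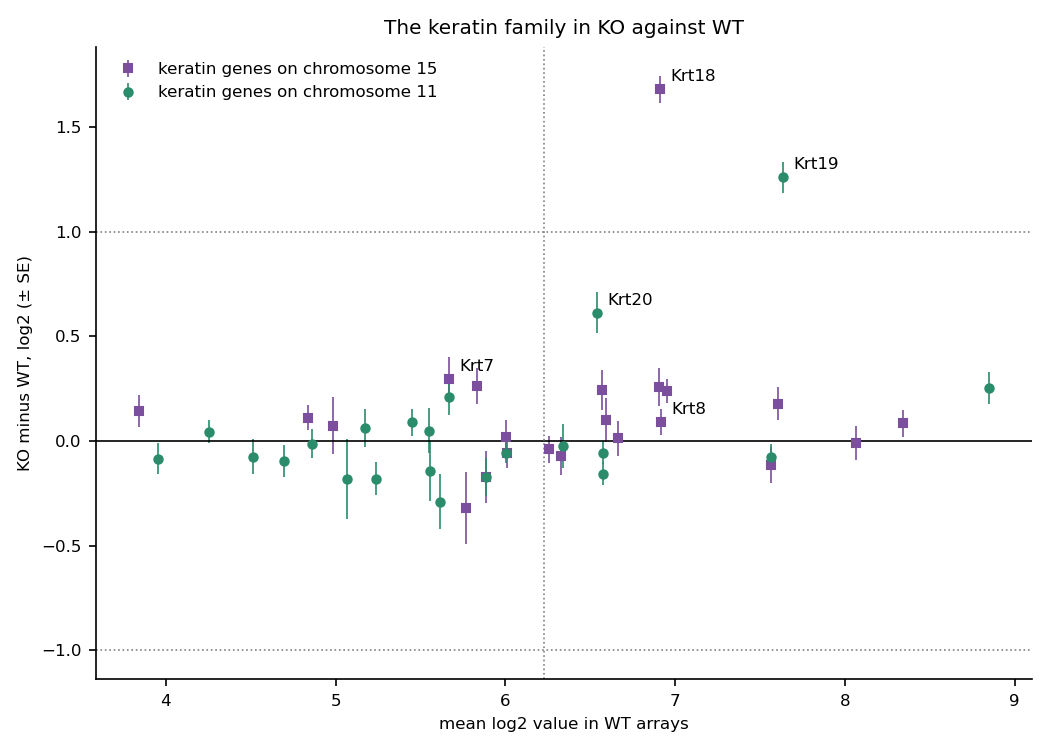
KO minus WT log2 difference with SE (y axis) of 44 keratin genes at their most abundant probe set against the mean log2 value in WT arrays (x axis). Squares are genes on chromosome 15 and circles genes on chromosome 11; dotted lines mark 2-fold and the low-value limit. Krt18 and Krt19 lie above the 2-fold line and Krt20 follows at 0.61.

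Neither epithelial adhesion gene was called. Cdh1 had 3.97, 3.98 and 4.13 in KO arrays, 4.28, 4.19 and 4.27 in Het arrays, and 4.40, 3.95 and 4.26 in WT arrays, far under the low-value limit on every array. The difference between KO and WT was -0.18 ± 0.0996 (limma adjusted p = 0.221). The 2 probe sets of Epcam disagreed. One, an _x_at set, had 8.67, 8.81 and 8.75 in KO arrays, 8.65, 8.65 and 8.60 in Het arrays, and 8.56, 8.44 and 8.49 in WT arrays. Its KO arrays were above the others by a little, with a KO minus WT difference of 0.24 ± 0.0531 (limma adjusted p = 0.00566), short of 2-fold. The other, an _a_at set, whose probes match alternative transcripts of a gene, lay between 5.64 and 5.95 on all arrays, with a difference of -0.10 (adjusted p = 0.260).

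Mesothelial members were dim, and their small differences did not all have the same sign. Wt1 had 5.96, 6.08 and 5.87 in KO arrays, 5.76, 5.96 and 5.91 in Het arrays, and 6.39, 6.26 and 6.20 in WT arrays. WT was thus the highest line, and the differences from it were -0.31 ± 0.0759 in KO (limma adjusted p = 0.0109) and -0.41 ± 0.0759 in Het (adjusted p = 0.00401), both short of 2-fold. Wt1 was the member with the adjusted p below threshold between Het and WT. Msln had 5.72, 5.35 and 5.48 in KO arrays, 5.18, 5.19 and 5.31 in Het arrays, and 5.17, 5.28 and 5.10 in WT arrays. The KO arrays were the highest, by 0.33 ± 0.0895 over WT (limma adjusted p = 0.0171). Upk3b had 5.25, 5.35 and 5.28 in KO arrays, 4.86, 4.85 and 4.85 in Het arrays, and 4.83, 4.91 and 4.80 in WT arrays at its _s_at set, a kind that may match several transcripts. That gave a KO minus WT difference of 0.45 ± 0.0489 (limma adjusted p = 5.7e-05), under the limit on every array. Its other probe set overlapped between lines (0.22, adjusted p = 0.173).

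The wider lists of epithelial genes showed a few large rises among many genes that were not called. Of 26 measured genes of epithelial junctions 3 rose in KO against WT, 0 fell and 23 did not pass (median of the log2 differences 0.05 against -0.02 over all genes, of which 0.753% were called higher). All 3 belong to the desmosome, the junction to which keratin filaments attach. Dsp encodes desmoplakin, the protein that ties keratins to it, and had 7.52, 7.40 and 7.37 in KO arrays, 4.73, 4.89 and 4.69 in Het arrays, and 4.91, 4.40 and 4.55 in WT arrays. KO stood alone, 2.81 ± 0.113 above WT (limma adjusted p = 3.5e-08), with Het and WT under the low-value limit, so this size holds for the deposited values only. A second Dsp probe set was called too (2.27), and the third, between 4.67 and 4.83 on the 9 arrays, was at -0.01. Perp, a membrane protein of the desmosome and a p53 target, had 9.44, 9.41 and 9.29 in KO arrays, 6.50, 6.37 and 6.52 in Het arrays, and 6.51, 6.18 and 6.63 in WT arrays. Here too the KO line was separate (2.94 ± 0.102, limma adjusted p = 1.3e-08). The Het and WT means of Perp, 6.46 and 6.44, lay close above the low-value limit, with the WT array at 6.18 under it. Its size therefore also holds for the deposited values only.

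Pkp2, the plakophilin gene of simple epithelia and heart, had 10.16, 10.10 and 10.20 in KO arrays, 9.35, 9.40 and 9.28 in Het arrays, and 9.01, 9.06 and 9.10 in WT arrays. At this most abundant probe set Het lay between KO and WT without overlap. The KO minus WT difference there was 1.10 ± 0.0524 (limma adjusted p = 1.2e-07), and it was 0.78, short of 2-fold, when all 4 Pkp2 probe sets were averaged. Another set, called higher in KO at 1.03, had Het (mean 9.02) overlapping WT (mean 9.01). Of the remaining sets the brighter again had Het between KO and WT, and at the dimmer all lines overlapped. Jup, which encodes plakoglobin and was named after its value was seen, was 1.53-fold higher in KO (limma adjusted p = 7.1e-04). The desmosomal cadherin genes Dsg2, Dsc2 and Dsc3 differed from WT by -0.04, -0.04 and -0.05.

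Among 25 measured genes of the epithelial program (regulators, surface and adhesion genes) 2 were called higher in KO against WT and 0 lower. The list median was 0.02, and 0.753% of all genes were called higher. By the adjusted p threshold alone 6 were higher and 3 lower (34.8% of all genes passed). The 3 lower were Muc1 (-0.33, limma adjusted p = 0.0043), Itga6 (-0.26, adjusted p = 0.0011) and Itgb4 (-0.24, adjusted p = 0.0265). All 3 were short of 2-fold, and Itgb4 was under the low-value limit. Sfn encodes the adaptor 14-3-3 sigma, a p53 target that binds keratins, and had 9.61, 9.69 and 9.69 in KO arrays, 8.30, 8.46 and 8.44 in Het arrays, and 7.48, 7.58 and 7.42 in WT arrays. It was graded over the lines, with 2.17 ± 0.0614 in KO (limma adjusted p = 4.1e-09) and 0.91 ± 0.0614 in Het (adjusted p = 1.3e-05), where Het was short of 2-fold. Cd24a, a surface glycoprotein of epithelial and progenitor cells, had 12.06, 12.06 and 11.97 in KO arrays, 10.71, 10.82 and 10.80 in Het arrays, and 10.62, 10.66 and 10.70 in WT arrays, with a KO minus WT difference of 1.37 ± 0.0517 (limma adjusted p = 2.2e-08). Its other 2 probe sets were called higher as well (1.39 and 2.14). Of the 25 genes 11 were under the low-value limit, regulators among them. Esrp1, an epithelial splicing factor, averaged 4.59 in KO, 4.58 in Het and 4.46 in WT arrays. Trp63, the basal epithelial transcription factor, averaged 5.33, 5.29 and 5.30 in the same order. Grhl3, another regulator under the limit, was higher in KO than in WT by 0.39 (limma adjusted p = 0.0011), short of 2-fold. Other regulators were above the limit, and of these the transcription factor genes Grhl2 (0.26, limma adjusted p = 0.0138) and Klf5 (0.33, adjusted p = 0.0100) were higher in KO than in WT but short of 2-fold. Klf4 (-0.02), Elf3 (0.02) and the splicing factor gene Esrp2 (0.27) did not pass in that comparison.

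**Figure D4:**
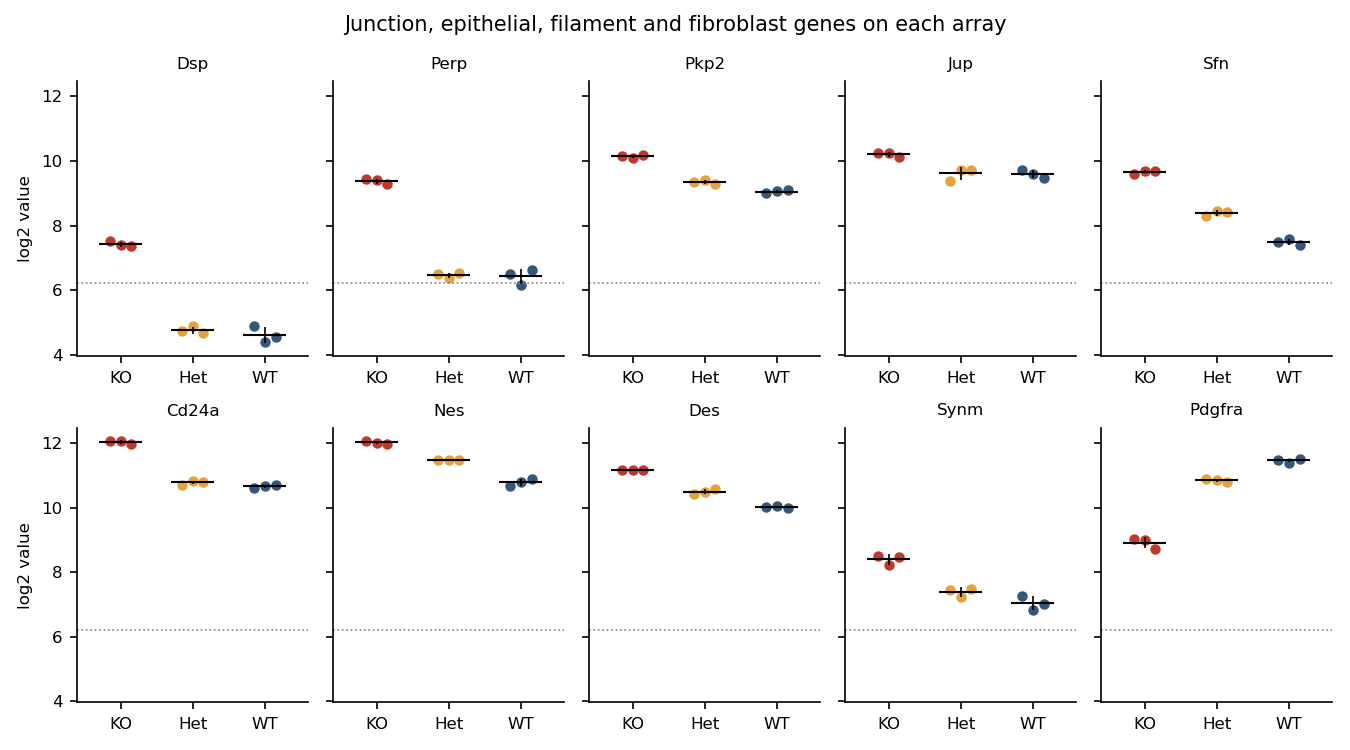
Log2 values (y axis) of 10 genes at their most abundant probe set on the KO, Het and WT arrays (x axis). Points are arrays, horizontal lines means, vertical lines SD (n = 3), and the dotted line is the low-value limit of 6.22. Dsp, Perp and Cd24a are high in KO with Het near WT, Sfn, Nes and Des are graded from KO over Het to WT, and Pdgfra is graded the other way.

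Genes of the mesothelium outside the members gave no call. Of 16 such genes 0 were called by limma between KO and WT, 7 passed the adjusted p threshold alone (4 higher and 3 lower; 34.8% of all genes passed), and the median difference was 0.11. The most shifted were Aldh1a2, the enzyme that makes retinoic acid (9.35 in KO, 8.46 in Het and 8.40 in WT arrays, a KO minus WT difference of 0.95, limma adjusted p = 3.0e-07), and Tbx18, a transcription factor of epicardium and mesenchyme (0.68, adjusted p = 2.3e-06). Of the others that passed, Nkain4 (0.38) and Gata6 (0.30) were higher in KO, and Pdpn (-0.59), Gpm6a (-0.42) and Rspo1 (-0.34) lower. Of the 16 genes 7 were under the low-value limit, Gpm6a, Rspo1, Lrrn4, Bnc1, Muc16 and Calb2 among them. The KO and WT arrays of Gpm6a overlapped.

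Other intermediate filament genes rose beside Krt18 and Krt19. In a list of 10 filament and filament-linker genes 3 rose in KO against WT and 0 fell (median 0.52, with 0.753% of all genes called higher). Nes, the nestin gene of progenitor cells, had 12.07, 12.00 and 11.97 in KO arrays, 11.46, 11.49 and 11.49 in Het arrays, and 10.68, 10.79 and 10.88 in WT arrays, and it rose by 1.24 ± 0.0575 in KO (limma adjusted p = 9.9e-08), as did its other 2 probe sets (1.14 and 1.21). Des, the desmin gene of muscle, averaged 11.16 in KO, 10.49 in Het and 10.01 in WT arrays and rose by 1.15 in KO (limma adjusted p = 8.0e-08). Its second, dim probe set was at 0.05, and their mean at 0.60 was short of 2-fold. Synm, which encodes synemin, a partner of desmin and vimentin, rose by 1.35 in KO at its most abundant probe set (limma adjusted p = 1.1e-05). Its other probe set was at 0.78, short of 2-fold. Vim, the vimentin gene of fibroblasts, averaged 14.71 in KO, 14.63 in Het and 14.60 in WT arrays.

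Of 20 mesenchymal genes 1 fell in KO against WT and 0 rose (median -0.02; 1.91% of all genes were called lower). The gene that fell was Pdgfra, a growth factor receptor of fibroblasts, with 9.03, 8.99 and 8.72 in KO arrays, 10.88, 10.87 and 10.79 in Het arrays, and 11.47, 11.39 and 11.51 in WT arrays, a difference of -2.55 ± 0.0784 (limma adjusted p = 6.0e-09). Its other 2 probe sets were at -1.93, called, and -0.98, short of 2-fold. The Het minus WT difference was -0.61 at the most abundant probe set (limma adjusted p = 4.5e-04), short of 2-fold. The set at -1.93 in KO was called lower in Het too (-1.11, limma adjusted p = 8.5e-05), and the remaining set was at -0.25. Another 8 passed the adjusted p threshold in KO against WT short of 2-fold (34.8% of all genes passed this threshold). With Pdgfra counted, 2 of the genes that passed were higher in KO and 7 were lower. The cadherin gene Cdh2 was higher by 0.61 (limma adjusted p = 4.7e-05), while Fap (-0.53) and Prrx1 (-0.40) were lower. The 7 Snail, Twist and Zeb factors of the list, which repress epithelial genes, were all short of 2-fold and did not go one way. Snai2 stood at -0.31 (KO minus WT, limma adjusted p = 6.6e-04) and Twist1 at -0.26 (adjusted p = 0.0075), while Twist2 stood at 0.26 (adjusted p = 0.0045). Snai1 (-0.15), Snai3 (0.06), Zeb1 (0.0004) and Zeb2 (0.03) did not pass, and Zeb2 was higher in Het than in WT by 0.35 (adjusted p = 0.0099).

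**Figure D5:**
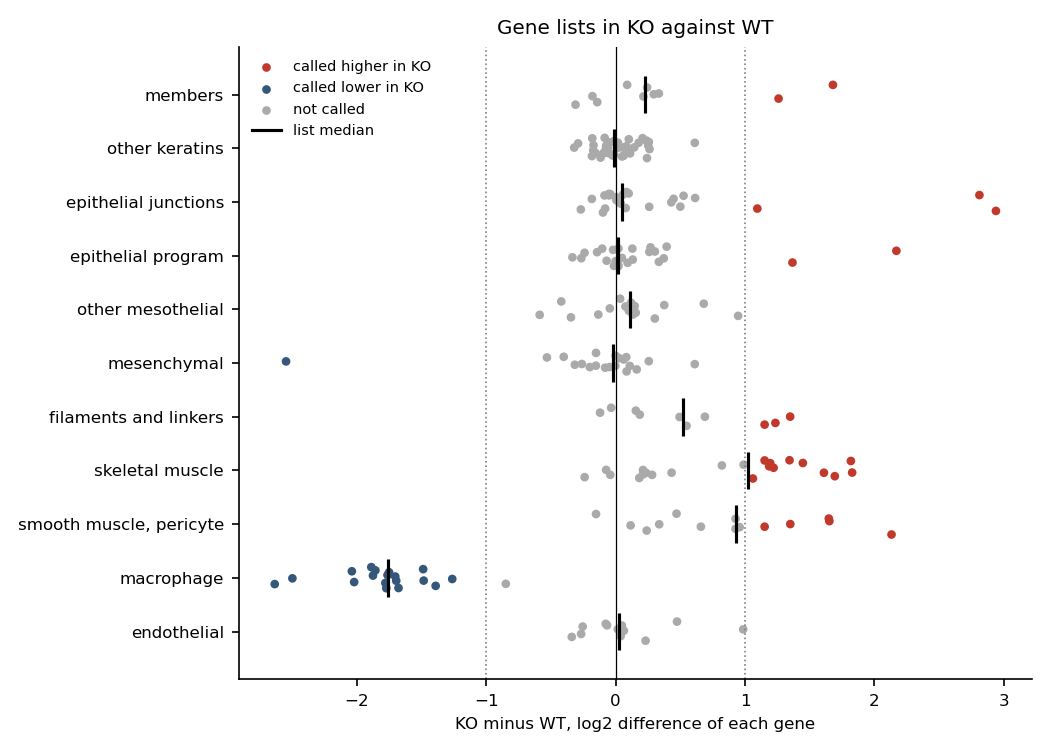
KO minus WT log2 difference (x axis) of every gene in 11 lists (y axis) at its most abundant probe set. Colours mark called genes, vertical bars list medians, and dotted lines 2-fold. The members have a median of 0.23, the junction list 0.05 and the epithelial program 0.02, with 2 or 3 called genes each. The skeletal muscle list has a median of 1.03, the smooth muscle list 0.93 and the macrophage list -1.76, and the muscle lists also hold genes near or below 0.

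Markers of other cell types moved between the same lines. Over all genes, 0.753% were called higher in KO against WT, 1.91% were called lower and 34.8% passed the adjusted p threshold alone. In bulk RNA, fewer cells of a type and less RNA per cell cannot be told apart. Of 22 skeletal muscle genes 11 were called higher in KO against WT (median 1.03), led by Tnni1 (1.83), Ldb3 (1.82), Actc1 (1.69) and Acta1 (1.61). Of these Ldb3 (0.89) was short of 2-fold when its probe sets were averaged. The WT mean of Ldb3, 6.44, lay close above the low-value limit, with a WT array at 6.21 under it. Its size therefore holds for the deposited values only. By the adjusted p threshold alone 16 were higher and 1, Tnni2 (-0.24, limma adjusted p = 0.0378), was lower. The values of the list, summed on the linear scale, were 6799 to 6983 in KO, 4403 to 4814 in Het and 3068 to 3184 in WT arrays. Among the myogenic regulators Myog averaged 7.35 in KO, 7.19 in Het and 6.36 in WT arrays, higher in KO by 0.99 (limma adjusted p = 2.7e-07) and in Het by 0.83 (adjusted p = 9.4e-06), short of 2-fold. Myod1 (0.28, adjusted p = 0.0251), Myf6 (0.18) and Myf5 (-0.07) were under the low-value limit. Of 14 smooth muscle and pericyte genes 5 were called higher (median 0.93), led by Rgs5 (2.13), Myocd (1.65), Cnn1 (1.65) and Mcam (1.35). With averaged probe sets 3 were called, without Myocd (0.87) and without Des (0.60), which is also in the skeletal muscle list. The WT mean of Myocd, 5.96, was under the low-value limit, and its size too holds for the deposited values only. The sums of this list were 96700 to 98013 in KO, 77428 to 78620 in Het and 66096 to 66821 in WT arrays. Macrophage genes went the other way: 18 of 19 were called lower in KO (median -1.76), led by Cd68 (-2.63), Mrc1 (-2.50), Fcgr3 (-2.04) and Mpeg1 (-2.02), with sums of 19183 to 20033 in KO, 52453 to 55256 in Het and 66405 to 68294 in WT arrays. Of 12 endothelial genes 0 were called by limma and 4 passed the adjusted p threshold alone, near the 34.8% of all genes. Emcn at 0.99 and Flt1 at 0.47 differed most. Emcn was under the low-value limit in Het (5.44) and WT (5.67), so its size holds for the deposited values only. Between Het and WT the muscle actin gene Actc1 was the single gene of all these lists that was called at its most abundant probe set (0.198% of all genes were). The part of these cell types in the rise of Krt18 and Krt19 was not tested. The sums of the 10 members themselves were 1674 to 1770 in KO, 1138 to 1167 in Het and 1084 to 1119 in WT arrays.

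Many probe sets correlated strongly with Krt18 across the arrays. Over the 9 arrays the 5 genes with the highest Pearson correlation to Krt18 were Fas, a death receptor and p53 target (r = 0.998), Mgll, monoglyceride lipase (0.998), Ccn1, a matricellular protein (0.998), Bdnf, a neurotrophin (0.998), and Hspa1b, a heat shock protein (0.998). The arrays come from 3 lines, so a gene high in KO and alike in Het and WT gives such a value: of 23169 probe sets compared, 815 reached 0.95. Krt19 had r = 0.991, Dsp 0.988 and Perp 0.986 with Krt18, against 0.544 for Krt8 and 0.752 for Krt7. These values restate the differences between lines given above. Dsp and Krt7, under the low-value limit, were not among the probe sets compared.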

How the data were processed

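Total RNA of 3 MEF lines was labelled with biotin by the Affymetrix procedure, per the labels' protocols, and measured on 9 arrays. The values are log2 signals as deposited, with 45101 probe sets on each array; the base was taken from their range, 3.25 to 15.1. GCOS and Partek are named, without versions, in the submitters' processing notes; for background, normalization and summarization the sources used here give no method. No further normalization was applied, since the medians of the arrays ran only from 6.87 to 6.95. The 64 control probe sets were left out, and the other 45037 were fitted in R 4.3.3 by limma 3.58.1 (its functions lmFit and eBayes), with 3 lines, all arrays and no filter on low values. Symbols came from the platform annotation: 34945 probe sets had 1 symbol, 932 several and 9160 none. By Entrez identifier 34741 matched the RefSeq gene table of GRCm38.p6, and 0 symbols needed updating. In lists a gene was read at its probe set with the highest mean. Promoter windows, found for 6 of the 10 members, are RefSeq's. The fit was tested on simulated data.

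Members and lists were chosen with earlier results of these data known. Named were Oga, all members, any called keratin, up to 4 called genes of each list or else its 2 most shifted, and the 5 genes most like Krt18; other genes are examples chosen after their values were seen. Alternatives were quantile normalization, median centring, low-value filters, other fold minimums, a trended and robust variance, fits of only the compared lines, a replicate block, probe set means and each array left out. Arrays have no read depth; precision is limited by how many there are. Plots used matplotlib 3.10.9.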

Additional observations from a re-analysis of the deposited data

How the results depend on the processing

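Krt18 and Krt19 kept their call in KO against WT under all 17 alternatives run for each, with log2 differences of 1.65 to 1.70 and 1.18 to 1.33. The counts of called members were the same throughout except with no fold minimum, where 6 probe sets and 5 genes passed for KO against WT, 1 and 1 for Het against WT, and 5 and 4 for KO against Het. With no fold minimum 34.8% of all genes passed in KO against WT. The counts of other lists were then 9 of 26 for junctions, 9 of 25 for the epithelial program and 7 of 16 for other mesothelial genes. They were 9 of 20 for mesenchymal, 8 of 10 for filament, 17 of 22 for skeletal muscle and 13 of 14 for smooth muscle genes. Endothelial genes had 4 of 12 and other keratin genes 4 of 39. The junction, epithelial program and endothelial counts were near the share of all genes. A 1.5-fold minimum gave 3 other mesothelial, 2 mesenchymal, 9 smooth muscle, 1 endothelial and 1 other keratin gene. Averaging the probe sets of a gene left 3 smooth muscle genes. It also took Pkp2 (0.78), Ldb3 (0.89) and Des (0.60) short of 2-fold in KO against WT. Des stands in the filament, skeletal muscle and smooth muscle lists and counts in each. Emcn, dim in Het and WT, passed 2-fold with centred medians (1.00), quantile normalization (1.00), without KO replicate 3 (1.02) or without WT replicate 3 (1.02), giving 1 endothelial gene; over left-out arrays this count ran from 0 to 1. The sign turned for Krt8 with averaged probe sets (-0.11) and for dim Krt14 probe sets with centred medians (0.0146 and 0.0012); over left-out arrays the 3 Krt14 values ran from -0.267 to 0.0464, from -0.0645 to 0.0629 and from -0.0708 to 0.0517. The cause of these changes was not tested. Deviations of arrays with the same replicate number correlated at -0.107 to 0.230 over the pairs of lines, so the numbers were not taken to pair arrays. With the replicate block 2 member probe sets were called for KO against WT, 0 for Het against WT and 2 for KO against Het, and the block changed no other call. With 12 of 16 member probe sets under the low-value limit, small differences of dim members are limited by signal over background. Without the lowest 40% of probe sets, Dsp was not tested.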
